A study of Mus musculus with 26 samples.

Results

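The proteasome is the barrel-shaped protease that degrades ubiquitin-tagged proteins. Its core is built from alpha ring subunits (Psma genes), which gate the entrance, and beta ring subunits (Psmb genes), some of which carry the cutting sites. A cap of ATPases (Psmc) and other subunits (Psmd) binds ubiquitin, unfolds the substrate and feeds it in, and activators (Psme), an inhibitor (Psmf1) and assembly chaperones (Psmg) act on the core. In neurons the proteasome takes part in the turnover of synaptic proteins. In the mouse gene table, 51 of 21887 protein-coding genes had a name made of Psm, a letter from a to g and a number, and these are the proteasome genes described here. They were 19 core genes (8 alpha ring, 11 beta ring), 20 cap genes (6 ATPases, 14 others), 4 activators, 1 inhibitor, 4 assembly chaperones and 3 genes named after a subunit without being one (Psmc3ip, Psme2b and Psme3ip1). At least 1 peak of any kind was assigned to 47 of the 51 genes. Psmb11, Psme2b, Psme3ip1 and Psmg2 were assigned none under these names, and Psme3ip1 stands in the lists under its older name Fam192a.

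Open chromatin was measured by ATAC-seq, in which a transposase cuts and tags accessible DNA, in nuclei of D1 and D2 medium spiny neurons (MSNs) of the mouse brain. These are the principal striatal neurons, named for the dopamine receptors Drd1 and Drd2, and the study's title places them in the nucleus accumbens. Each cell type was taken in cocaine relapse (CC, 4 D1 and 1 D2 libraries), after chronic cocaine and prolonged withdrawal (CS, 4 D1 and 8 D2 libraries), after acute cocaine (SC, 4 D1 and 1 D2 libraries) and at baseline (SS, 2 D1 and 2 D2 libraries). Genotype, strain, age, sex and the way the nuclei were sorted are not given in the labels used here. Since every one of the 8 groups is held as a single peak list, replicate error is unknown and no test between groups could be made. All differences describe these lists.

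The lists differed in length and in make-up. D1 CC held 77103 peaks, D1 CS 48469, D1 SC 28321 and D1 SS 28579, while D2 CC held 68444, D2 CS 27917, D2 SC 58810 and D2 SS 61818. Patch scaffolds of the genome carried 70 to 137 peaks in D1 CC, D1 CS, D1 SC and D2 CS, and 4 to 7 in the other 4 lists, so that the lists fall into 2 technical sets that cross the groups. Of 5 D2 MSN markers (Drd2, Adora2a, Penk, Gpr6, Sp9), 5 had a promoter peak in every D2 list, against 5 in D1 CC, 4 in D1 CS, 3 in D1 SC and 1 in D1 SS. Of 5 D1 MSN markers (Drd1, Tac1, Pdyn, Isl1, Ebf1), 4 or 5 had one in the D1 lists and 3 to 5 in the D2 lists. Drd1 was open at its promoter in every list, and Drd2 was so in D1 CC and D1 CS as well, so promoter peaks of these markers set the lists apart only in part. Oligodendrocyte markers had promoter peaks in every list (4 of 7 in D1 CC and D1 CS, 2 of 7 in the others). Of 5 interneuron markers, 4 had one in D1 CC, 2 in D1 CS, 1 in D1 SC, 0 in D1 SS and 2 in each D2 list. Astrocyte markers had promoter peaks for 2 of 5 in D1 CC, for 1 in D1 CS, D2 CC, D2 CS and D2 SS, and for 0 in D1 SC, D1 SS and D2 SC. The part of other cells in the results below was not tested. List length may bear on them. Differences between lists are therefore also given for lists of equal length, that is for the 27917 peaks of lowest q in each list. The share of all genes with a promoter peak was not computed at equal length, so counts of members at that length have no background beside them. A promoter open in fewer nuclei cannot be told apart from one less open in each.

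Promoter sequences of the genes the results turn on are shown here, as the 250 bases before the RefSeq start, 5′ to 3′ on the gene's strand (RefSeq, build mm10). Psmb5 and Psmb6 encode constitutive cutting subunits, Psmb8 and Psmb9 encode the interferon-inducible ones that replace the corresponding constitutive subunits. Psmc6 and Psmd12 belong to the cap, and Psmd5 is a chaperone of its assembly. Capitals mark TGACNNNGC (the core of the antioxidant response element, bound by Nfe2l1 and Nfe2l2), CCAAT (bound by NF-Y) and CCGGAAG (a core of ETS factor sites), read on either strand.
Psmb5, chr14:54617996-54618245, minus strand: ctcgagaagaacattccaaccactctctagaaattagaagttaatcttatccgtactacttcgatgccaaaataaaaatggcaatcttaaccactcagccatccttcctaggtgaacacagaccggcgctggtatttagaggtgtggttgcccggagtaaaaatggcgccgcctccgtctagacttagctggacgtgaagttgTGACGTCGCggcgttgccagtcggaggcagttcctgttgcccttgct
Psmb6, chr11:70525107-70525356, plus strand: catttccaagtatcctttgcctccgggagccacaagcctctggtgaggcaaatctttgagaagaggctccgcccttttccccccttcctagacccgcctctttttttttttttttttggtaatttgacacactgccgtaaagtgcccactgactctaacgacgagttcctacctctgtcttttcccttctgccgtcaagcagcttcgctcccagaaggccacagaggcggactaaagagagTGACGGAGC
Psmb8, chr17:34197945-34198194, plus strand: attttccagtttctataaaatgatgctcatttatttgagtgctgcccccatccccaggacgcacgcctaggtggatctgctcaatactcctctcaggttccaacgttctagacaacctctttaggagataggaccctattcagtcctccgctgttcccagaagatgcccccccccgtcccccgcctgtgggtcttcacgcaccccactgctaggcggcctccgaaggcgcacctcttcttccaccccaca
Psmb9, chr17:34187331-34187580, minus strand: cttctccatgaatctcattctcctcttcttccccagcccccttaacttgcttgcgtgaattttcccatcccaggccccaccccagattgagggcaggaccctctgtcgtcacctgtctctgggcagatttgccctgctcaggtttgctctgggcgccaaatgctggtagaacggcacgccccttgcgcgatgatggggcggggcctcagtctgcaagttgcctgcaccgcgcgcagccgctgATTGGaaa
Psmc6, chr14:45329574-45329823, plus strand: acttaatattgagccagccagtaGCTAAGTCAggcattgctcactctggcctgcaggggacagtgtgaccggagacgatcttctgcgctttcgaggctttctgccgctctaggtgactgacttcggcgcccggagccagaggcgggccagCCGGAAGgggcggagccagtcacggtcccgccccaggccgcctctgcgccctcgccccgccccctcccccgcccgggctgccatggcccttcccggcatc
Psmd5, chr2:34870963-34871212, minus strand: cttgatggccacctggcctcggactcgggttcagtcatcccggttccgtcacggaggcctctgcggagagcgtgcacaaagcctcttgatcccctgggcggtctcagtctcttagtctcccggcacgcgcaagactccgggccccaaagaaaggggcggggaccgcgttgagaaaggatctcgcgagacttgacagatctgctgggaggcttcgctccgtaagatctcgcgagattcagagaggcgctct
Psmd12, chr11:107479278-107479527, plus strand: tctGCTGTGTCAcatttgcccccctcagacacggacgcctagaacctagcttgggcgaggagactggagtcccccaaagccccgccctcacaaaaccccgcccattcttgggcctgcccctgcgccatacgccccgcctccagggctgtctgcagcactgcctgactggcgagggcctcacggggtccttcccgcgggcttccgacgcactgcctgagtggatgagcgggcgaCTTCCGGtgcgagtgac

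Psmb5 carried TGACGTCGC from base -47 and Psmb6 carried TGACGGAGC from base -9, counted back from the start. In Psmc6 and Psmd12 the same string lay on the other strand, from base -227 and base -247, and CCGGAAG lay from base -100 in Psmc6 and from base -17 on the other strand in Psmd12. Psmb9 had a reverse CCAAT from base -8, whereas the Psmb8 and Psmd5 stretches held none of these 3 strings.

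Proteasome genes had a promoter peak more often than protein-coding genes at large in every list. A promoter peak here is a peak that the authors assigned to the gene at no more than 1000 bp from its transcription start. It was present for 40 of the 51 genes in D1 CC (78.4%, against 53.5% of all protein-coding genes), 37 in D1 CS (72.5%, against 51.2%), 38 in D1 SC (74.5%, against 44.9%) and 31 in D1 SS (60.8%, against 38.9%). In the D2 lists it was present for 38 genes in D2 CC (74.5%, against 49.2%), 36 in D2 CS (70.6%, against 46.2%), 35 in D2 SC (68.6%, against 47.5%) and 37 in D2 SS (72.5%, against 49.0%). The lowest share was that of D1 SS, which is also the list with the lowest share over all genes. With lists of equal length the order differed, as 37 members had a promoter peak in D1 CC, 35 in D1 CS, 38 in D1 SC and 31 in D1 SS, and 31 had one in D2 CC, 36 in D2 CS, 29 in D2 SC and 31 in D2 SS. The member peak farthest inside the 1000 bp limit was a Psmd3 peak at 909 bp in D2 SS (200 bp wide, fold 3.08) and the nearest outside a Psmd1 peak at 1373 bp in D2 SC (200 bp wide, fold 3.28).

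The counts were higher when the gene name on the peak was set aside. By position, that is with any peak whose middle lay within 1000 bp of a RefSeq start, 47 of the 50 proteasome genes with a known start had one in D1 CC (94.0%, against 62.1% of all genes with a start), 44 in D1 CS (88.0%, against 59.8%), 43 in D1 SC (86.0%, against 53.0%) and 39 in D1 SS (78.0%, against 46.3%). In D2 the counts were 45 in D2 CC (90.0%, against 57.3%), 42 in D2 CS (84.0%, against 54.4%), 44 in D2 SC (88.0%, against 55.6%) and 45 in D2 SS (90.0%, against 57.2%). By this count 39 of the 50 genes (78.0%) had a peak in all 8 lists, against 44.7% of all genes, and 3 (Psma8, Psmb11 and Psme2b) had one in none. By the assigned name the same shares were 29 of 51 (56.9%) against 34.6%.

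The shares by position were close to those of 2 other gene families with constant duties. Ribosomal protein genes had a peak in 82.0% (D1 SS) to 89.9% (D1 CC, D1 CS, D2 CC and D2 SC) of 89 genes. Respiratory chain genes had one in 81.3% (D1 SS) to 94.5% (D1 CC) of 91 genes. No difference between the 3 families was tested.

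**Figure D1:**
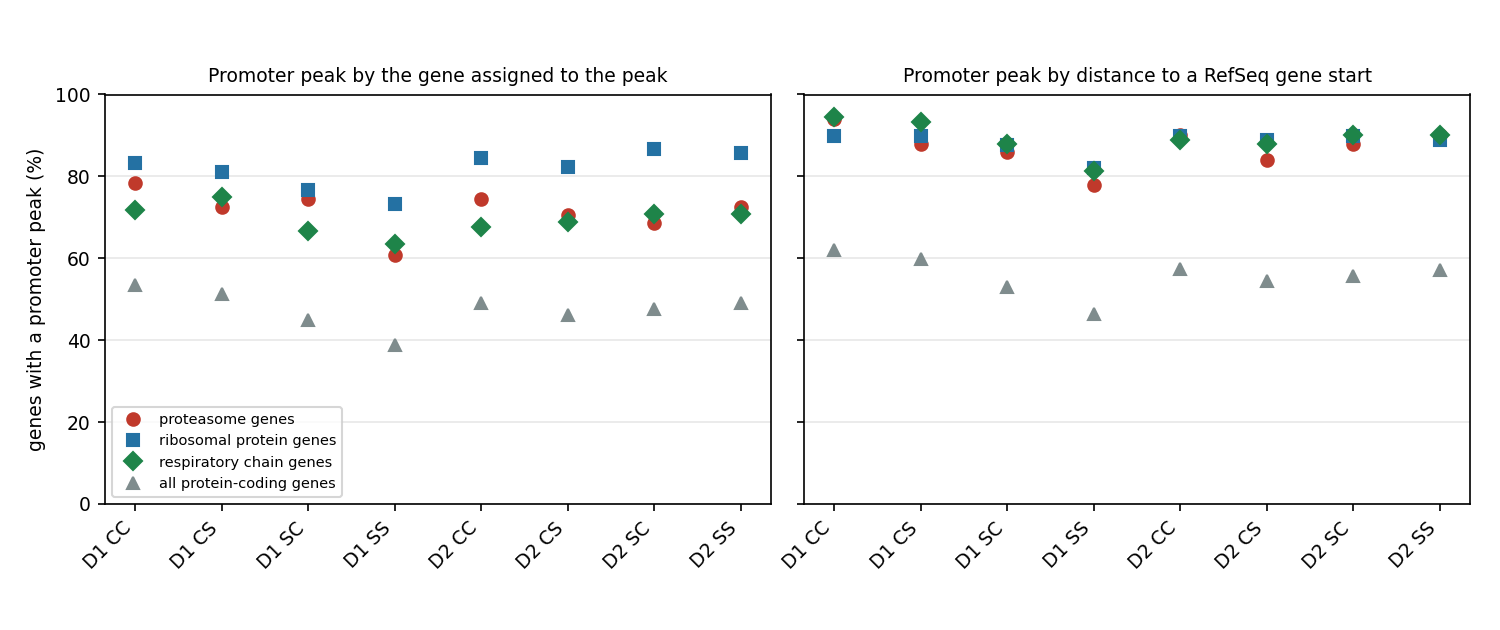
Share of genes with a promoter peak (%, vertical axis) in each of the 8 lists, by the gene assigned to the peak (left) and by distance to a RefSeq start (right). Red circles are proteasome genes, blue squares ribosomal protein genes, green diamonds respiratory chain genes and grey triangles all protein-coding genes; proteasome genes lie at 60.8% to 78.4% on the left and 78.0% to 94.0% on the right, above all genes in each list.

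Much of the gap between these counts lay at promoters that face another gene. Of the 50 proteasome genes with a start, 9 (18.0%) had the start of a gene on the other strand, pointing away, within 1000 bp, against 8.47% of all genes, 14.6% of ribosomal protein genes and 29.7% of respiratory chain genes. The pairs were Psmc2 and Dnajc2 (11 bp apart), Psma7 and Ss18l1 (19 bp), Psmd13 and Sirt3 (85 bp), Psmc5 and Ftsj3 (101 bp), Psmd10 and Atg4a (196 bp), Psma2 and Mrpl32 (205 bp), Psme3ip1 and Rspry1 (215 bp), Psmb9 and Tap1 (226 bp), and Psme2 and Rnf31 (641 bp). All 9 had a peak by position in all 8 lists. Under their own names, 3 of the 9 had one in D1 CC, 2 in D1 CS, 4 in D1 SC and 1 in D1 SS, and 2 in D2 CC, 4 in D2 CS, 1 in D2 SC and 2 in D2 SS. These counts take Psme3ip1 as unnamed in each list, since its peak bears Rspry1 in D1 CS and D2 CC and its older name Fam192a in the other 6. Psmc2 was likewise never named on its peak, and the other 7 were named on theirs in 1 to 4 lists.

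Several of these shared peaks were among the strongest of their lists. Strength is given as fold percentile, the percentage of a list's peaks with a lower fold, because the authors' fold is not scaled between lists. The peak between Psma2, an alpha ring gene, and Mrpl32, a mitochondrial ribosomal protein gene, lay at percentile 86.4 to 99.3, yet bore the name Psma2 in D1 CC and D2 SS alone. The peak at Psmd10, an assembly chaperone of the cap also known as gankyrin, lay at 93.8 to 99.8 and was named Psmd10 in D1 CS, D1 SC and D2 CC. Psma5 was assigned no promoter peak at all, but the peak at its start, named for 1700010K24Rik in all 8 lists, was 670 to 873 bp wide and lay at percentile 87.6 to 99.6. The peak at the ATPase gene Psmc2, named for Dnajc2 in every list, was weaker, at percentile 19.0 to 62.2. The peak between Psma7 and Ss18l1 was broad, 855 to 1468 bp, but mid-ranked, at 50.9 to 73.7. That between Psmd13, a lid subunit of the cap, and Sirt3, a mitochondrial deacetylase, spanned 271 bp (D1 SS) to 1048 bp (D1 CC) at 37.4 to 95.9.

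**Figure D2:**
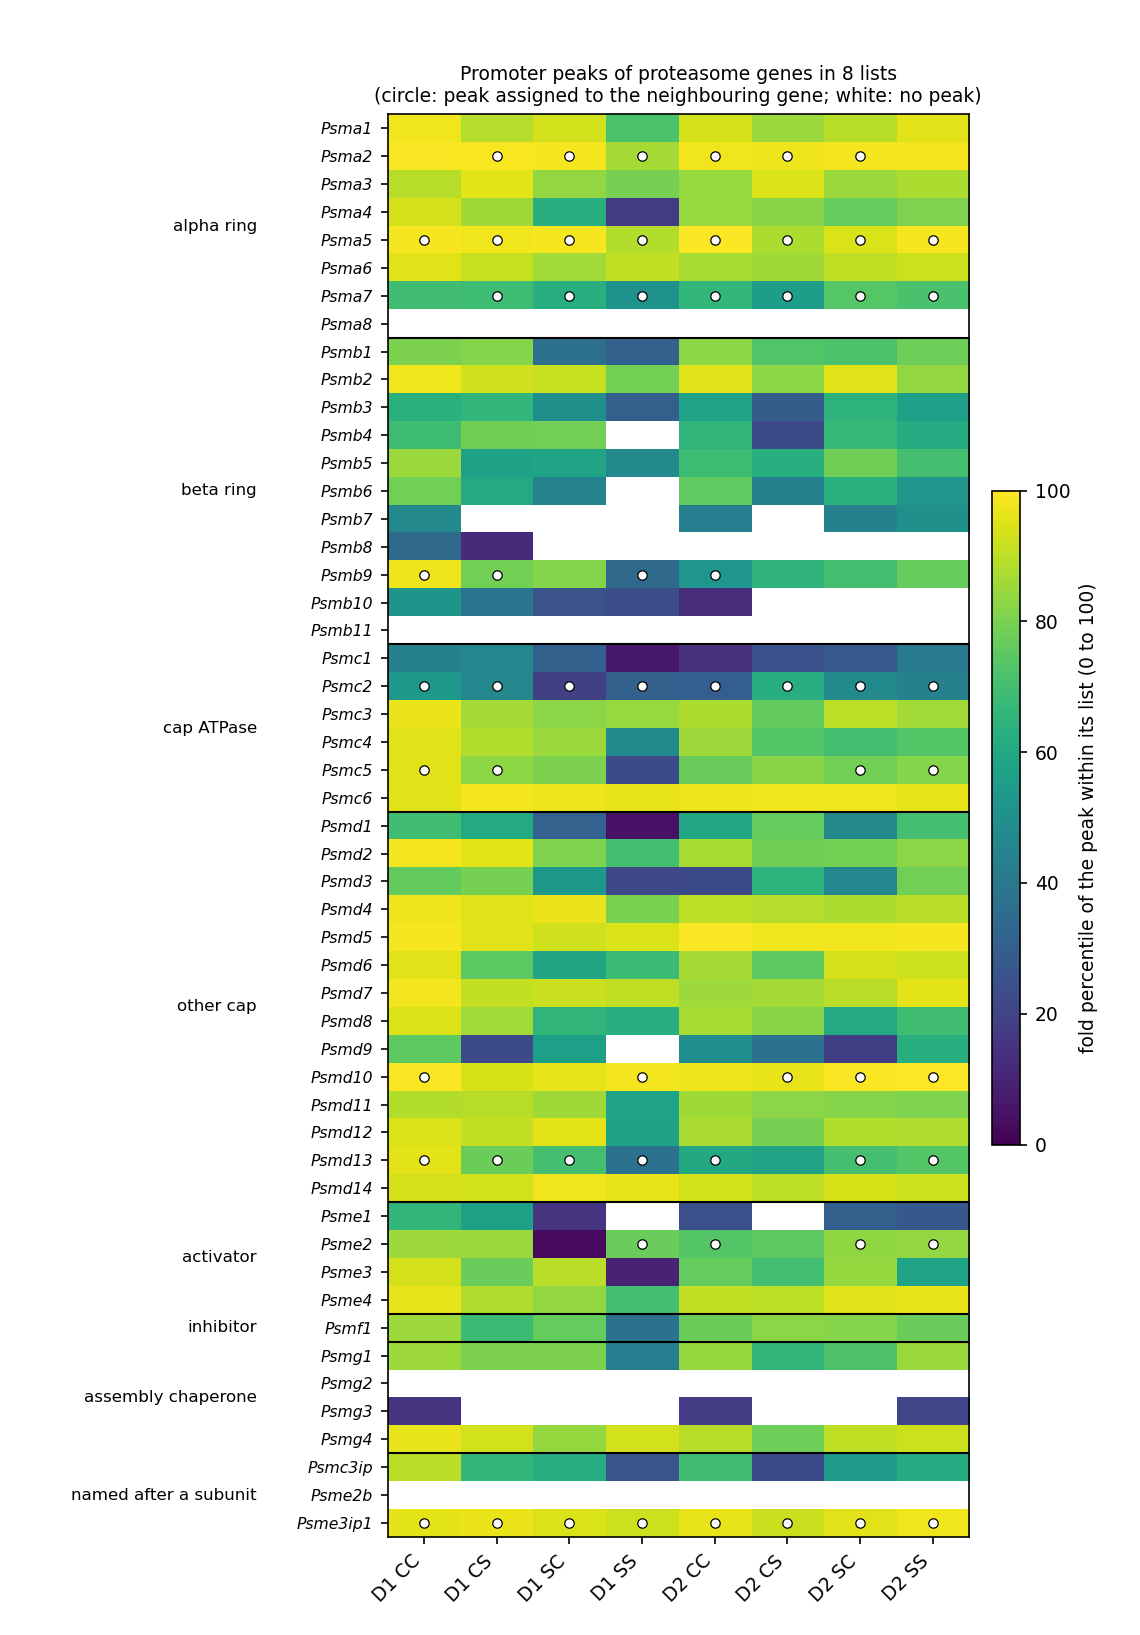
Fold percentile (0 to 100, colour) of the promoter peak of each of the 51 proteasome genes (vertical axis, grouped by role) in the 8 lists (horizontal axis). Circles mark peaks named for a neighbouring gene (for Psme3ip1 also Fam192a, its older name) and white cells mark no promoter peak; Psma5 and Psmc2 carry a circle in all 8 lists, and the beta ring holds more white cells than the alpha ring or the cap.

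Core and cap genes differed in how regularly they had a peak. By position all 20 cap genes had one in each list but D1 SS, where 19 did (Psmd9 lacked it). Of the 19 core genes, 17 had one in D1 CC, 15 in D1 CS, 14 in D1 SC and 12 in D1 SS, and 15 in D2 CC, 14 in D2 CS, 15 in D2 SC and 15 in D2 SS. The core genes without a peak were mainly beta ring genes, since 7 of the 8 alpha ring genes had one in every list, the exception being the testis form Psma8. In D1 CC, D2 CC, D2 SC and D2 SS the core genes without one were all among Psma8, the thymic form Psmb11 and the inducible Psmb8 and Psmb10. The other lists also lacked Psmb7, and D1 SS lacked Psmb4 and Psmb6 as well. Beta ring genes had one in 10 of 11 cases in D1 CC and 5 of 11 in D1 SS.

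Cap genes also had peaks of higher rank than core genes. By assigned name, the median fold percentile of cap genes against core genes was 95.2 against 80.3 in D1 CC, 89.3 against 80.2 in D1 CS, 83.7 against 70.8 in D1 SC and 65.8 against 48.0 in D1 SS. In D2 it was 86.6 against 79.2 in CC, 78.8 against 72.8 in CS, 84.6 against 73.9 in SC and 84.2 against 78.1 in SS. The order held in all 8 lists by assigned name, but these are the same genes in each list and the lists are no replicates. By position the cap and core medians were closer in every list. In D1 they were 95.5 against 84.9 in CC, 87.5 against 82.0 in CS, 81.5 against 80.3 in SC and 63.1 against 61.3 in SS. In D2 they were 86.1 against 83.1 in CC, 78.8 against 77.5 in CS, 80.3 against 76.3 in SC and 82.2 against 78.1 in SS. Alpha ring medians by position were no lower than those of the cap in any list, with 92.4 against 82.2 in D2 SS. Within the core the beta ring was the lower part, as alpha ring genes had medians by position of 79.3 (D1 SS) to 95.5 (D1 CC), and beta ring genes of 34.6 (D1 SS) to 73.95 (D1 CC).

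Peak widths did not set the proteasome genes above other genes. Their median width by assigned name was 805.5 bp in D1 CC (881 bp over all genes with a promoter peak), 717 bp in D1 CS (771 bp over all), 594.5 bp in D1 SC (661 bp) and 558 bp in D1 SS (608 bp). In D2 it was 726 bp in D2 CC (808 bp over all), 683 bp in D2 CS (682 bp), 697 bp in D2 SC (731 bp) and 724 bp in D2 SS (771 bp). They were narrower than the median of all genes in 7 lists and within 1 bp of it in D2 CS. Both medians were widest in D1 CC and narrowest in D1 SS.

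Their fold percentile, in turn, lay above that of all genes in 7 lists and below it in D1 SS. The medians were 89.4 in D1 CC (82.2 over all genes with a promoter peak), 85.8 in D1 CS (79.5 over all), 80.4 in D1 SC (73.3) and 58.2 in D1 SS (67.8). In D2 they were 84.5 in D2 CC (77.5 over all), 77.2 in D2 CS (72.2), 79.0 in D2 SC (76.7) and 80.5 in D2 SS (78.5). The 95% interval of the members' median over genes held the median of all genes in every list. It ran from percentile 80.3 to 95.4 in D1 CC and from 75.4 to 86.9 in D2 CC. In D1 SS it was widest, from percentile 31.0 to 79.0. Ribosomal protein genes had medians of 67.2 in D1 SS and 65.4 in D2 CS, and respiratory chain genes 68.3 in D1 SS and 78.8 in D2 CS. When peaks were ranked among promoter peaks alone, the members' median was 40.0 in D1 SS and 53.3 to 65.0 in the other lists, on a scale where 50 is the middle of all promoter peaks.

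**Figure D3:**
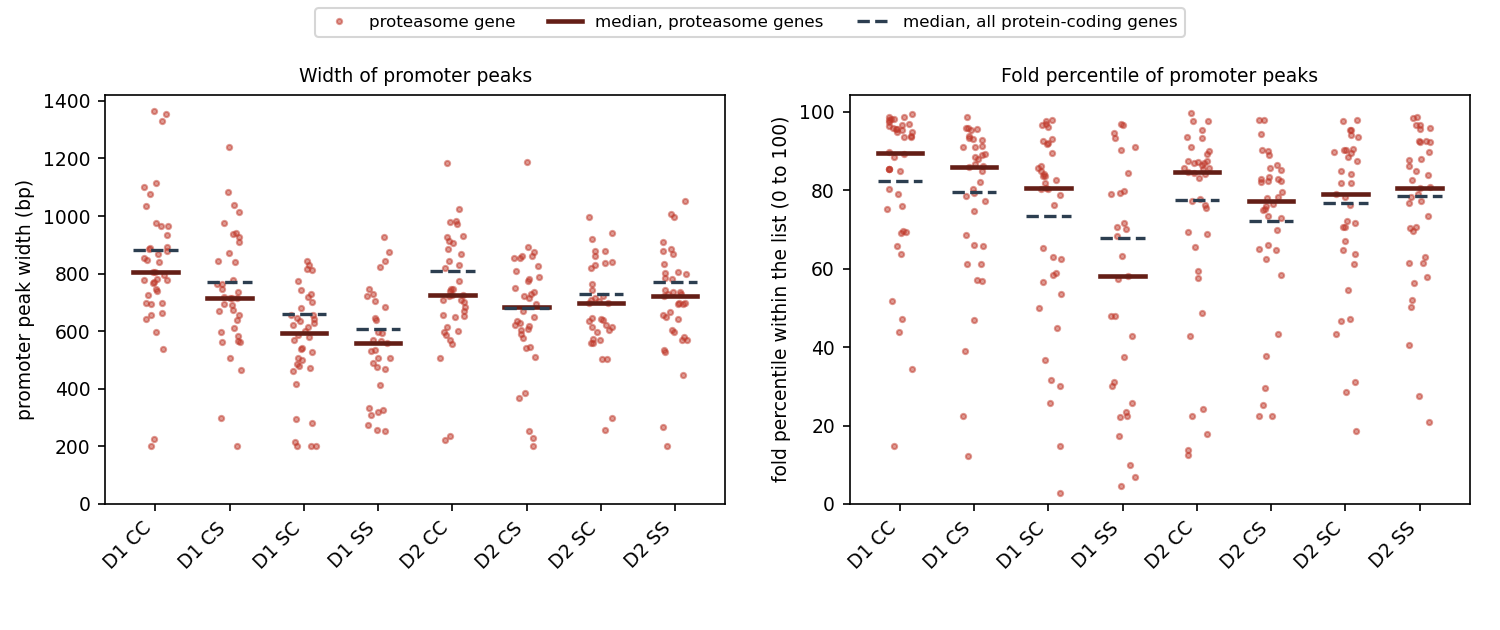
Width (bp, left) and fold percentile (0 to 100, right) of the promoter peak of each proteasome gene in the 8 lists, by assigned gene. Each point is a gene, the red bar is the median of proteasome genes and the dashed line the median of all protein-coding genes; the red bar of the percentile is below the dashed line in D1 SS (58.2 against 67.8).

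By assigned name the strongest promoter peaks by median percentile over the lists belonged to Psma2, Psmd5 and Psmc6, with Psma2 named on a peak in only 2 lists, as given above. By position the medians over 8 lists were 98.4 for Psma2, 98.2 for Psma5, 97.9 for Psmd10, 97.8 for Psmd5 and 97.5 for Psmc6. Psmd5, an assembly chaperone of the ATPase ring, lay at percentile 98.5 in D1 CC, 95.6 in D1 CS, 92.6 in D1 SC and 94.4 in D1 SS, and at 99.5 in D2 CC, 97.9 in D2 CS, 97.8 in D2 SC and 98.5 in D2 SS. Psmc6, an ATPase of the cap, lay at 95.4 in D1 CC, 98.5 in D1 CS, 97.6 in D1 SC and 96.7 in D1 SS, and at 97.5 in D2 CC, 97.9 in D2 CS, 97.7 in D2 SC and 96.6 in D2 SS. The lowest of these values were 92.6 for Psmd5, in D1 SC, and 95.4 for Psmc6, in D1 CC. Psmd14, the cap subunit that removes ubiquitin from substrates, also stayed at 90.2 to 97.8.

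The weakest were Psmg3, Psmb8 and Psmb10. Psmg3, an assembly chaperone of the core, had peaks of 227 bp in D1 CC, 222 bp in D2 CC and 200 bp in D2 SS, at percentile 14.9, 17.8 and 21.0, and none in the other 5 lists. Its partner chaperones differed, as Psmg1 lay at 42.7 to 85.4 and Psmg4 at 77.9 to 96.5 with a peak in all 8 lists each. Psmg2 was given no start, as it had no RefSeq promoter entry and was named on no peak. The ATPase gene Psmc1 had a peak in all 8 lists but a weak one, from percentile 6.85 in D1 SS to 46.8 in D1 CS.

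The constitutive catalytic genes were open with small, mid-ranked peaks. Psmb5, which encodes the chymotrypsin-like subunit, had peaks of 599 bp in D1 CC, 566 bp in D1 CS, 282 bp in D1 SC and 535 bp in D1 SS, and of 602 bp in D2 CC, 670 bp in D2 CS, 637 bp in D2 SC and 695 bp in D2 SS. They lay at percentile 48.0 (D1 SS) to 84.9 (D1 CC), and D1 SC stood out by its width. Psmb6, the caspase-like subunit, had peaks of 657 bp in D1 CC, 610 bp in D1 CS and 217 bp in D1 SC and none in D1 SS, and of 596 bp in D2 CC, 230 bp in D2 CS, 573 bp in D2 SC and 534 bp in D2 SS. The narrow D1 SC and D2 CS peaks of Psmb6 covered the gene side of the start and not the upstream side. Psmb7, the trypsin-like subunit, had peaks of 539 bp in D1 CC, 569 bp in D2 CC, 560 bp in D2 SC and 529 bp in D2 SS, at percentile 42.7 to 50.3, and none in D1 CS, D1 SC, D1 SS and D2 CS. These last are the 4 shortest lists.

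The inducible catalytic genes, typical of immune cells and of interferon exposure, had weak, absent or shared peaks. Psmb8 had a peak of 200 bp, the smallest width in the lists, in D1 CC (percentile 34.5) and D1 CS (percentile 12.2) and none in the other 6. These peaks lay between bases -491 and -257 from the RefSeq start, just upstream of the stretch printed above, and 13 to 48 bp from a start in the authors' annotation. Tap2, the next peptide transporter gene of that region, likewise had a promoter peak in those 2 lists alone, 201 bp wide in D1 CC and 230 bp in D1 CS. The peak at Psmb9 lies between Psmb9 and Tap1 and was found in all 8 lists, 911 bp wide in D1 CC, 651 bp in D1 CS, 538 bp in D1 SC and 292 bp in D1 SS, and 633 bp in D2 CC, 622 bp in D2 CS, 504 bp in D2 SC and 568 bp in D2 SS. Its percentile was 97.4 in D1 CC and 34.6 in D1 SS, and 52.0 to 81.8 in the other lists. Psmb10 had assigned peaks of 769 bp in D1 CC, 506 bp in D1 CS, 200 bp in D1 SC, 413 bp in D1 SS and 235 bp in D2 CC. They began 833 to 1074 bp into the gene from the RefSeq start, near another start in the authors' annotation. None was found in D2 CS, D2 SC or D2 SS. By position Psmb10 had a peak in D1 CC alone, a second one of 274 bp (fold 2.47, percentile 0.71). Of 8 microglia markers, among them Cx3cr1, Csf1r and P2ry12, 0 had a promoter peak in any list. Peaks of any kind at these markers covered 239 bp (D2 CS) to 2614 bp (D1 CC) in sum. Vascular markers had promoter peaks for 2 of 6 in D1 CC, D1 CS and D2 CS, 1 in D2 SS and 0 in the other lists.

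**Figure D4:**
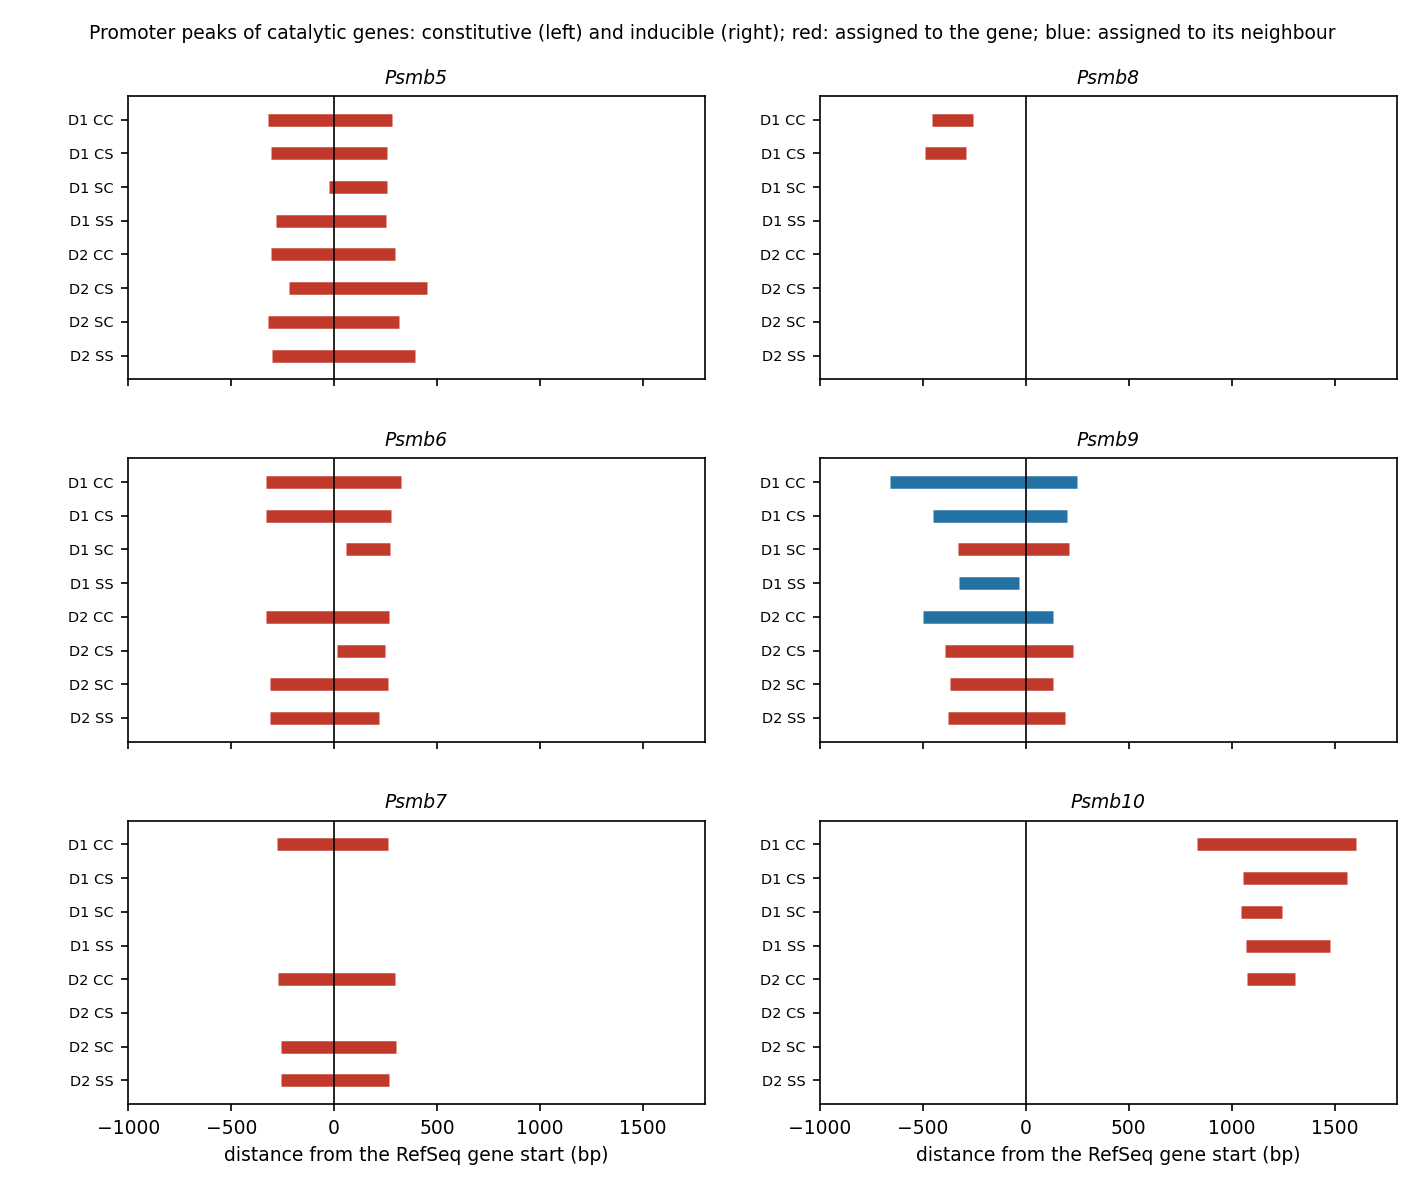
Extent of the promoter peak relative to the RefSeq start (bp, horizontal axis, positive into the gene) in each list for 3 constitutive catalytic genes (left column) and 3 inducible ones (right column). Red bars are peaks assigned to the gene and blue bars peaks assigned to its neighbour; Psmb5 has a bar across the start in all 8 lists, Psmb8 a 200 bp bar upstream in D1 CC and D1 CS, and Psmb10 bars more than 800 bp inside the gene in 5 lists.

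The activators differed among themselves. Psme4, an activator of the nucleus, had a peak in all 8 lists, 1354 bp in D1 CC, 1084 bp in D1 CS, 622 bp in D1 SC and 309 bp in D1 SS, and 1186 bp in D2 CC, 749 bp in D2 CS, 997 bp in D2 SC and 1054 bp in D2 SS. Psme3, also nuclear, had one in all 8, from percentile 9.81 in D1 SS to 93.4 in D1 CC. Psme1, which forms the interferon-inducible activator together with Psme2, had peaks of 841 bp in D1 CC, 598 bp in D1 CS and 202 bp in D1 SC, and of 555 bp in D2 CC, 258 bp in D2 SC and 447 bp in D2 SS. It had none in D1 SS and D2 CS, and its percentile of 14.9 to 65.8 was below that of Psme3 and Psme4 in each list where it had a peak. The peak between Psme2 and Rnf31 was there in all 8 lists, 770 to 1331 bp wide, at percentile 73.4 to 86.3. In D1 SC the peak named Psme2 was a separate one of 200 bp at percentile 2.79.

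The inhibitor gene Psmf1 had a peak in all 8 lists, at percentile 37.4 (D1 SS) to 85.4 (D1 CC). Among the other cap genes Psmd9, a chaperone of the ATPase ring, was the 1 that lacked a peak in a list by position. Its peaks were 644 bp in D1 CC, 466 bp in D1 CS and 417 bp in D1 SC, and 507 bp in D2 CC, 200 bp in D2 CS, 504 bp in D2 SC and 268 bp in D2 SS. Psmb4, a beta ring gene without a cutting site, likewise lacked one in D1 SS and had peaks of 297 bp (D1 CS) to 663 bp (D1 CC) elsewhere. Both, like Psmb6, were absent from D1 SS alone, so that 8 genes in all varied between lists by position: Psmb4, Psmb6, Psmb7, Psmb8, Psmb10, Psmd9, Psme1 and Psmg3.

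The remaining members, apart from Psme3ip1, had an assigned promoter peak in all 8 lists and differed in rank. Among alpha ring genes, Psma6 (percentile 85.6 to 95.5) and Psma3 (79.3 to 95.9) varied least, Psma1 lay at 71.7 to 97.8, and Psma4 ranged from 17.3 in D1 SS to 93.7. Among beta ring genes Psmb2 was the strongest (79.0 to 98.0), above Psmb1 (31.0 to 83.1) and Psmb3 (29.5 to 65.7). The ATPase genes Psmc3 (75.8 to 96.9) and Psmc4 (48.0 to 95.6) also had a peak in each list. In the rest of the cap, Psmd7 (85.5 to 98.2), a scaffold partner of Psmd14, and Psmd4 (79.7 to 97.3), a ubiquitin receptor, were at the top. Psmd2 (70.6 to 98.5), Psmd8 (61.2 to 94.9), Psmd6 (58.8 to 95.7), Psmd11 (58.2 to 89.3) and Psmd12 (57.2 to 96.0) followed. Psmd3 (22.1 to 79.3) and Psmd1 (4.7 to 76.4), a large scaffold subunit, were the lowest of them. Psmc3ip, a meiotic recombination factor, lay at 22.5 to 89.6. Psme3ip1, whose peak the lists name for Fam192a or Rspry1, had a peak by position in all 8 lists at 91.9 to 97.9.

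Peaks sat on the start. By position the median middle of the members' peaks lay 3 bp (D2 CC) to 29.5 bp (D1 CS) upstream of it, and 45 of 47 peaks in D1 CC, 42 of 44 in D1 CS, 38 of 43 in D1 SC and 32 of 39 in D1 SS covered it. In D2, 44 of 45 in CC, 37 of 42 in CS, 41 of 44 in SC and 43 of 45 in SS did. The median reach was 407 bp upstream and 403 bp downstream in D1 CC, against 308 and 274 bp in D1 SS. The wider D1 CC peaks thus reached further on both sides.

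Acute cocaine was compared with baseline within each cell type. In D1 the SS list is in the technical set with few patch peaks and the SC, CS and CC lists are in the other, so that for D1 the state and the set cannot be told apart in any comparison with baseline. Group and set also coincide where D2 CS is compared with D2 SS or D2 CC, where D1 SC is compared with D2 SC and where D1 CC is compared with D2 CC. The lists of the other 7 pairs share a set. By position, D1 SC had a peak at 4 proteasome genes (8.0%) that D1 SS lacked, namely Psmb4, Psmb6, Psmd9 and Psme1, and lacked 0 that D1 SS had. Over all genes 7.68% were in D1 SC and not D1 SS, and 0.93% the reverse. By assigned name 7 members differed, against 10.0% of all genes. In D2, 0 genes were in D2 SC and not D2 SS (0.886% of all), and 1, Psmg3, was in D2 SS and not D2 SC (2.44% of all), while 2 differed by assigned name (5.06% of all). The members' shares were near those of all genes. Their promoter peaks present in both lists were wider in D1 SC than in D1 SS for 22 of 31 genes, with a median log2 width ratio of 0.15 against 0.14 over all genes. Their fold percentile was higher by a median of 13.5 points in D1 SC than in D1 SS, against 4.88 points over all genes, 6.1 over ribosomal protein genes and 9.47 over respiratory chain genes. In D2 SC against D2 SS the members' median differences were 0.01 in log2 width and -2.06 points, against -0.07 and -1.44 over all genes. At equal length the percentile differences were 13.9 points in D1 and -3.05 points in D2, against 5.12 and -0.75 points over all genes.

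Chronic cocaine with withdrawal was compared with baseline in the same way. D1 CS had a peak at 5 genes (10.0%) that D1 SS lacked, the 4 above and Psmb8, and lacked 0, against 13.7% and 0.157% of all genes. By assigned name 8 members differed (14.9% of all). D2 CS had 0 that D2 SS lacked and lacked 3, Psmb7, Psme1 and Psmg3, against 1.97% and 4.69% of all genes, and 7 differed by assigned name (8.72% of all). In the full lists the direction was opposite in D1 and D2, and so was that of list length, since D1 CS is longer than D1 SS and D2 CS shorter than D2 SS. The direction in D2 turned with lists of equal length: by position D1 CS had 3 that D1 SS lacked and lacked 0, and D2 CS had 3 that D2 SS lacked and lacked 0. The shares of all genes at that length were not computed. The median log2 width ratio of members was 0.37 in D1 CS against D1 SS and -0.06 in D2 CS against D2 SS, and that of all genes was 0.43 and -0.20. Percentiles in the full lists differed by 20.4 points in D1 and -6.77 points in D2 in the members, and by 12.8 and -5.6 points over all genes. At equal length they differed by 10.8 points in D1 and 11.8 points in D2 in the members, and by 2.98 and 8.89 points over all genes.

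By position, relapse against baseline gave 8 differences in D1 and 0 in D2. D1 CC had a peak at all 8 varying genes (16.0%), none of which had one in D1 SS by position, although Psmb10 had its assigned peak there. Over all genes the share was 15.9%, and it lacked 0 (0.093% of all). By assigned name 11 members differed (17.3% of all). D2 CC and D2 SS had the same members by position, while 1.57% of all genes were in D2 CC alone and 1.4% in D2 SS alone of the pair. By assigned name 5 members differed between D2 CC and D2 SS (4.73% of all), and 4 of these had a peak by position in both. In D1 CC against D1 SS, 29 of 30 genes had a wider peak, with a median log2 width ratio of 0.57 against 0.62 over all genes, and the percentile was higher by 29.2 points against 15.9 over all genes. In D2 CC against D2 SS the members' medians were 0.10 and 0.33 points, against 0.05 and -0.80 over all genes. Limited to equal length, D1 CC had 5 that D1 SS lacked and lacked 1 by position, and D2 CC had 2 that D2 SS lacked and lacked 4, with no share over all genes computed for these counts. The percentile differences were then 16.0 points in D1 and 0.26 points in D2, against -1.74 and -3.64 points over all genes. These comparisons with D1 SS share that list, whose members' percentiles were low, so they are not independent of each other.

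Relapse was also set against the other cocaine states. D1 CC had 4 genes that D1 SC lacked (Psmb7, Psmb8, Psmb10 and Psmg3) and lacked 0, against 9.28% and 0.206% of all genes, with 8 differing by assigned name (11.5% of all). D1 CC had 3 that D1 CS lacked (Psmb7, Psmb10 and Psmg3) and lacked 0, against 3.3% and 1.0% of all genes, with 5 by assigned name (6.37% of all). In both pairs Psmb10 counts only through the 274 bp D1 CC peak at percentile 0.71, and its assigned peak was present in D1 SC and D1 CS too. D2 CC had 1 that D2 SC lacked (Psmg3) and lacked 0, against 2.49% and 0.769%, with 5 by assigned name (5.05%). D2 CC had 3 that D2 CS lacked (Psmb7, Psme1 and Psmg3) and lacked 0, against 5.01% and 2.12%, with 8 by assigned name (9.14%). In these 4 pairs D1 CC and D2 CC are the longer lists. At equal length D1 CC had a net 0 against D1 SC and a net 1 against D1 CS by position, and D2 CC had a net -1 against D2 SC and a net -5 against D2 CS. Net counts over all genes were not computed at that length. In the full lists the percentile of members was higher by 12.8 points in D1 CC than in D1 SC (10.0 over all genes), by 6.2 points than in D1 CS (2.41), and in D2 CC by 6.23 points than in D2 CS (4.7), and differed by -0.61 points between D2 CC and D2 SC (0.50). Between lists of equal length it differed by 0.76 points in D1 CC against D1 SC (-7.66 over all genes) and by 2.8 points against D1 CS (-5.22). In D2 CC it differed by -11.4 points against D2 CS (-13.6 over all genes) and by -2.64 points against D2 SC (-2.61), so that the sign in the first of these turned.

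Between the cell types within a state, the full lists differed by position at 1 or 2 members outside baseline and at 6 in baseline. D1 SC lacked Psmb7, which D2 SC had, and had 0 that D2 SC lacked, against 4.52% and 1.94% of all genes, with 5 differing by assigned name (8.24%). D1 CS had Psmb8 and Psme1, which D2 CS lacked, and lacked 0, against 6.06% and 0.695%, with 7 by assigned name (9.11%). D1 CC had Psmb8 and Psmb10, which D2 CC lacked by position, and lacked 0, against 5.37% and 0.602%, with 6 by assigned name (7.83%). The assigned peak of Psmb10 was present in D2 CC too. At baseline D1 SS lacked 6 of the 50 genes that D2 SS had, Psmb4, Psmb6, Psmb7, Psmd9, Psme1 and Psmg3, and had 0 that D2 SS lacked, against 11.0% and 0.137% of all genes, with 10 by assigned name (12.6%). D1 SS peaks were narrower for 26 of 29 genes, with a median log2 width ratio of -0.39 against -0.43 over all genes. The members' percentile differed by a median of -23.8 points in D1 SS against D2 SS, and that of all genes by -12.8 points. D2 SS held more peaks than D1 SS, and the part of list length in these differences was not tested. With lists of equal length D1 SS had 2 members by position that D2 SS lacked and lacked 2, and the percentile differed by 2.27 points (1.97 over all genes). By position D1 then had a net 5 more than D2 in SC, 0 in CS and 6 in CC, with percentile differences of 15.1, -1.32 and 14.6 points in the members and 9.38, -1.82 and 3.59 points over all genes. Counts over all genes were not computed at equal length.

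Over the 14 comparisons the members gave 94 differences by assigned name, counting a gene once in each comparison, and 43 by position. Of the 94, 49 had a peak by position in both lists, so some peak lay near the start in each and the name differed. They include Psme2 in D1 SC against D1 SS and D2 SC, where the named D1 SC peak was a separate one of 200 bp. Psmc5 illustrates a change of name together with extent, on a peak of 571 to 910 bp that was present in all 8 lists. The name was Psmc5 in D1 SC, D1 SS, D2 CC and D2 CS. There the peak was 571 to 657 bp wide, with its middle at -56.5 to -21 bp from the start. It was named Ftsj3 in D1 CC, D1 CS, D2 SC and D2 SS. In those lists the peak was 685 to 910 bp wide, with its middle at -191.5 to -83 bp.

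Strings in the promoters were counted on both strands of 300 bases, 250 before and 50 after the RefSeq start, for 43 proteasome genes with a sequence. CCGGAAG was in 16 of the 43 (37.2%), against 12.9% of 17492 protein-coding genes and 22.1% of the 7635 genes with a peak by position in all 8 lists. Ribosomal protein genes held it in 37.7% of promoters and respiratory chain genes in 24.4%. It was in 3 of 5 ATPase genes (Psmc1, Psmc2, Psmc6), 6 of 12 other cap genes, 2 of 4 activators and 1 of 7 alpha ring genes, and in 0 of 8 beta ring genes. These 8 were Psmb3 to Psmb6 and the inducible or thymic Psmb8 to Psmb11, as Psmb1, Psmb2 and Psmb7 had no sequence. TGACNNNGC was in 6 of the 43 (14.0%; Psmb5, Psmb6, Psmc6, Psmd9, Psmd12 and Psme4), against 14.8% of all genes. CCAAT was in 37.2% against 42.3%, and in 5 of 7 alpha ring genes. GGGCGG, the core of the GC box bound by Sp1, was in 55.8% against 49.2% of all genes and 74.0% of the always open ones. The palindromic site of NRF1, the nuclear respiratory factor, was in 2 (Psma2 and Psmg1; 4.65% against 1.47%), and TGACGTCA, the cAMP response element, in 0 (2.54% of all genes). A promoter can hold several of these strings, and a match is not a bound site.

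Base composition differed among the roles as well. The median number of CpG dinucleotides in the 300 bases was 19 in the members, 15 in all genes and 24 in the always open genes. It was 13.5 in the 8 beta ring genes with a sequence and 23 in the 7 alpha ring genes with one. Within the beta ring, Psmb3 to Psmb6 held 12 to 20 and the inducible or thymic Psmb8 to Psmb11 held 3 to 17. The lowest among the members were Psme2b with 2, Psmb10 with 3 and Psmb11 with 4. Of these, Psme2b and Psmb11 had no promoter peak. Psmb10 had an assigned one in 5 lists and one by position in D1 CC alone.

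Of 30 other genes of the pathway, 28 had an assigned promoter peak in D1 CC, 28 in D1 CS, 24 in D1 SC and 24 in D1 SS, and 25 in D2 CC, 26 in D2 CS, 26 in D2 SC and 25 in D2 SS. By position, of 29 with a start, 29 had one in D1 CC and D1 CS, 27 in D1 SC and 25 in D1 SS, and 27 in D2 CC and 28 in each of D2 CS, D2 SC and D2 SS. Their median fold percentile was 73.7 (D1 SS) to 89.5 (D1 CC). It lay above that of the members in every list but D1 SC (80.0 against 80.4). The gap was widest in D1 SS (73.7 against 58.2), D2 SC (87.2 against 79.0) and D2 SS (88.8 against 80.5). In the other lists the medians were closer. Nfe2l2, which activates proteasome and antioxidant genes, had peaks of 690 bp in D1 CC, 358 bp in D1 CS and 276 bp in D1 SC and none in D1 SS, and of 303 bp in D2 CS, 270 bp in D2 SC and 212 bp in D2 SS and none in D2 CC. Uchl5, a cap-bound deubiquitinase, Ufd1, a partner of the segregase Vcp, Ubb, Rps27a and Tap1 were each assigned a promoter peak in 4 to 7 lists and had one by position in all 8. Paaf1 had no assigned promoter peak and no start in the tables used here.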

How the data were processed

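ATAC-seq peak lists of 8 groups (26 libraries, 1 list per group) were used. Per the submitters' processing notes, cutadapt, HISAT, SAMtools and MACS2 were used with build mm10, without versions. The sources used here do not say if libraries were pooled for peak calling. For every peak the authors deposited a fold over background (a ratio) and a q-value of at most 0.0453, with the assigned gene, its type and its distance to the transcription start. Read totals are not in the lists, so depth is unknown, and peak number stands in for it as a limit on precision.

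Proteasome genes were protein-coding genes named ^Psm[a-g] with a number, with the RefSeq gene table (mm10) as denominator. Of 15172 protein-coding names in the lists 14492 (95.5%) matched it. A promoter peak lay within 1000 bp, and where a gene had several the highest fold counted. By position, any peak with its middle within 1000 bp of a RefSeq start counted. Starts came from the RefSeq promoter table for 17492 genes and from the gene end on the strand given in the lists for others, 20428 in all. A gene outside the promoter table thus had a start only if some list named it on a peak. Among such genes the denominator by position depends on having a peak, for members and all genes alike. Width, fold percentile within the list, presence per comparison (14 pairs) and log2 width ratios were computed. With 1 list per group no test, interval between groups or leave-one-out was possible. The range around a median is the 95% order-statistic interval over genes and does not cover replicate error.

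Named in full were members without an assigned promoter peak in some list, the catalytic and activator genes, and the 3 highest and 3 lowest by median percentile. Psma5, Psmd14, Psmc1, Psmg1 and Psmg4 were singled out after their values were seen. The values of 1 other pathway gene are not reported here. The members, gene lists and rules were chosen with earlier results of these data known. The ribosomal set leaves out the Rps6k kinase genes, which the fixed pattern would take in, and the respiratory set takes in assembly factors named Nduf. Technical sets were read from peaks on patch scaffolds (more than 20). Alternatives were promoter limits of 250 and 3000 bp, a q of at most 1e-05, lists of equal length (27917 peaks by q), the nearest or summed peak, other ranks, stricter name patterns and members open in all lists. Widths, percentiles and width ratios by position, and percentile differences and counts by position at equal length, were added after seeing the data. Both assignment steps were tested on simulated data. Scripts ran in Python 3.11.15 with pandas 2.3.3 and numpy 2.4.6, and figures were drawn with matplotlib 3.10.9.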

Additional observations from a re-analysis of the deposited data

Results flagged for a closer look

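In the full lists the direction of several D1 differences was opposite to that of the same contrast in D2. The lists differ in length, so values for lists of equal length (27917 peaks each) stand beside them. For counts at equal length the share over all genes was not computed. With 1 list per group none of these differences between cell types was tested. The technical set also changes in the D1 comparisons with baseline and in D2 CS against D2 SS, so state and set cannot be told apart there.

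For acute cocaine against baseline, D1 SC had a net 7 more members with a promoter peak by assigned name than D1 SS, and D2 SC had a net -2 against D2 SS. By position the net counts were 4 in D1 and -1 in D2. Over all genes, 7.68% had a peak by position in D1 SC and not D1 SS (8.0% of members), and 0.93% the reverse. In D2 the shares of all genes were 0.886% and 2.44%. By assigned name 10.0% of all genes differed in D1 and 5.06% in D2. The members' median fold percentile differed by 13.5 points in D1 and by -2.06 points in D2, against 4.88 and -1.44 points over all genes. At equal length the directions stayed opposite, with net counts of 7 and -2 by assigned name and 4 and -1 by position, and percentile differences of 13.9 and -3.05 points.

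For chronic cocaine with withdrawal against baseline, the net counts were 6 in D1 and -1 in D2 by assigned name, and 5 in D1 and -3 in D2 by position. Over all genes, 13.7% had a peak by position in D1 CS and not D1 SS (10.0% of members), and 0.157% the reverse. In D2 the shares of all genes were 1.97% and 4.69%. By assigned name 14.9% of all genes differed in D1 and 8.72% in D2. The median log2 width ratio was 0.37 in D1 and -0.06 in D2, against 0.43 and -0.20 over all genes. The percentile differed by 20.4 points in D1 and by -6.77 points in D2, against 12.8 and -5.6 points over all genes. With lists of equal length the directions were no longer opposite. The net counts were then 4 in D1 and 5 in D2 by assigned name and 3 in each by position, and the percentile differed by 10.8 points in D1 and 11.8 points in D2, against 2.98 and 8.89 points over all genes.

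For relapse against acute cocaine, the members' median percentile differed by 12.8 points in D1 and by -0.607 points in D2, against 10.0 and 0.50 points over all genes. At equal length the differences were 0.759 points in D1 and -2.64 points in D2, against -7.66 and -2.61 points over all genes.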

How the results depend on the processing

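No paired analysis was possible because each group has a single peak list, and for the same reason no library could be left out. The number of members with a promoter peak per list, their median widths and their median log2 width ratios kept within the limits set for them under the alternatives run for each, and no log2 width ratio whose interval over genes lay off 0 changed sign. The number of members that differ between 2 lists depended on how peaks are tied to genes. By position, in place of the assigned name, it was 4 in place of 7 for D1 SC against D1 SS, 5 (8) for D1 CS and D1 SS, 4 (8) for D1 CC and D1 SC, 3 (5) for D1 CC and D1 CS, 1 (2) for D2 SC and D2 SS, 3 (7) for D2 CS and D2 SS, 0 (5) for D2 CC and D2 SS, 1 (5) for D2 CC and D2 SC, 3 (8) for D2 CC and D2 CS, 1 (5) for D1 SC and D2 SC, 2 (7) for D1 CS and D2 CS, 2 (6) for D1 CC and D2 CC and 6 (10) for D1 SS and D2 SS. With lists of equal length it was 6 for D2 SC and D2 SS, 8 for D2 CC and D2 SS, 9 for D1 SC and D2 SC and 10 for D1 CC and D2 CC. With a promoter limit of 3000 bp it was 0 for D2 SC and D2 SS and 9 for D1 SC and D2 SC. Shares over all genes were not computed at equal length or at 3000 bp, and those by position stand with each comparison above. The activator count was 2 in place of 4 in D1 CC with a limit of 250 bp, 2 (4) in D1 SC and 1 (2) in D1 SS with a q of at most 1e-05, and 1 (3) in D2 SS with lists of equal length. The median fold percentile at equal length was 75.9 in D1 CS, 64.9 in D2 CC, 66.3 in D2 SC and 64.2 in D2 SS. The percentile difference of members turned sign at equal length in 4 pairs, to 11.8 points for D2 CS against D2 SS, -11.4 for D2 CC against D2 CS, -1.32 for D1 CS against D2 CS and 2.27 for D1 SS against D2 SS. The net count by position turned to 3 for D2 CS against D2 SS, -1 for D2 CC against D2 SC, -5 for D2 CC against D2 CS and 5 for D1 SC against D2 SC. Ranked among promoter peaks alone it was 65.0 in D1 CC, 61.0 in D1 CS, 60.3 in D1 SC, 61.8 in D2 CC, 56.6 in D2 CS, 53.3 in D2 SC and 53.4 in D2 SS, since promoter peaks as a class rank high in each list. Peak number, from 27917 to 77103, limits what an absent peak can show: a peak below the authors' threshold is not an absent one.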
